A study of Mus musculus with 4 samples.

Results

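The BCL2 family genes described here are 10 genes that set whether a cell commits to mitochondrial apoptosis: Bbc3, Pmaip1, Bid, Bcl2l11 and Bad of the BH3-only class, the effectors Bax and Bak1, and the pro-survival genes Bcl2, Bcl2l1 and Mcl1. They were chosen by name, through the RefSeq identifiers of the deposited tables, and took 13 of the 30769 transcript rows and 10 of the 22377 named genes. The cells were mouse embryonic stem (ES) cells (strain C57BL/6X129Sv mix), grown with serum and LIF for under 20 passages. They were p53+/+ or p53-/-, and their total RNA was extracted and sequenced after they had been left untreated or given Adriamycin (doxorubicin, a topoisomerase II poison that breaks DNA) at 0.5 uM for 8 h. The 4 groups were p53+/+ untreated, p53+/+ Adriamycin, p53-/- untreated and p53-/- Adriamycin, with 1 library each. There are therefore no replicates, no test and no p-value, and every difference is one between single libraries. The p53-/- allele and the number of lines behind each genotype are not given in the sources used here.

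In mitochondrial apoptosis, Bax and Bak form pores in the outer mitochondrial membrane and let cytochrome c out. The pro-survival proteins Bcl-2, Bcl-xL and Mcl-1 hold them in check, and BH3-only proteins are the stress sensors that either occupy the pro-survival proteins or activate Bax and Bak directly. Bbc3 (Puma), Pmaip1 (Noxa) and Bax are textbook transcriptional targets of p53, and mouse ES cells are known for dying readily after DNA damage.

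Values are FPKM, fragment counts scaled to transcript length and library size. The labels name an exome enrichment kit, and its effect on levels between genes was not tested, so orders, sums, shares and ratios across genes hold for the deposited FPKM only. Transcripts of a gene were summed, and a difference is one of log2(FPKM + 1), which understates the change of low genes. Differences of at least 1 in size (a step of 1) were counted as higher or lower, among the 12986 genes with at least 1 FPKM in a library. Of the 10 members 9 passed that filter and Bcl2 did not.

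The libraries held 3.34 to 4.32 gigabases of aligned sequence. Trp53 itself stood at 216 FPKM untreated and 165 FPKM treated with p53 intact, and at 78.6 and 76.5 FPKM in p53-/- cells, lower but not absent. All 8 genes of a list of p53 activity genes were higher after Adriamycin in p53+/+ cells, where 11.4% of all genes were. In p53-/- cells 0 of 8 were higher, where 0.370% of all genes were. The list was chosen with earlier results of these data known. It includes Mdm2, which encodes the ligase that degrades p53, at 32.6 and 257 FPKM against 17.7 and 19.9 FPKM. All 10 ES cell markers exceeded 1 FPKM in every library, but their sum was not steady. It was 4461 FPKM untreated and 3014 FPKM after Adriamycin in p53+/+ cells, and 3175 and 2787 FPKM in p53-/- cells. Markers of other cell types also moved with genotype. The 12 fibroblast markers summed to 261 and 183 FPKM in the p53+/+ libraries, where Col3a1, Postn, Lum and Dcn were listed at 0, and to 825 and 753 FPKM in the p53-/- libraries, where 11 reached 1 FPKM. The 11 primitive endoderm markers summed to 119 and 137 FPKM against 59.4 and 59.2 FPKM (Foxa2 listed at 0 in untreated p53-/- cells), and the 8 trophoblast markers to 35.1 and 42.2 FPKM against 73.9 and 69.0 FPKM. The part of these markers in the genotype and treatment differences below was not tested. The 7 blood cell markers in the tables summed to at most 3.75 FPKM.

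In p53+/+ cells Bbc3 and Pmaip1 passed the step of 1 after Adriamycin. Bcl2l11 (1.72-fold), Bad (1.66-fold) and Mcl1 (1.59-fold) came next, below that step and above a 1.5-fold one. Counted higher were 2 of 10 members, both BH3-only, and 0 were lower, where 11.4% of all genes were higher and 2.79% lower. In p53-/- cells 0 of 10 members were counted in either direction, against 0.370% of all genes higher and 0.470% lower. Quantile normalization took the share of higher genes among all genes counted in the p53+/+ response from 80.3% to 65.4%, and left both member counts as they were. In bulk RNA, fewer cells that express a gene and less of its RNA per cell cannot be told apart.

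**Figure D1:**
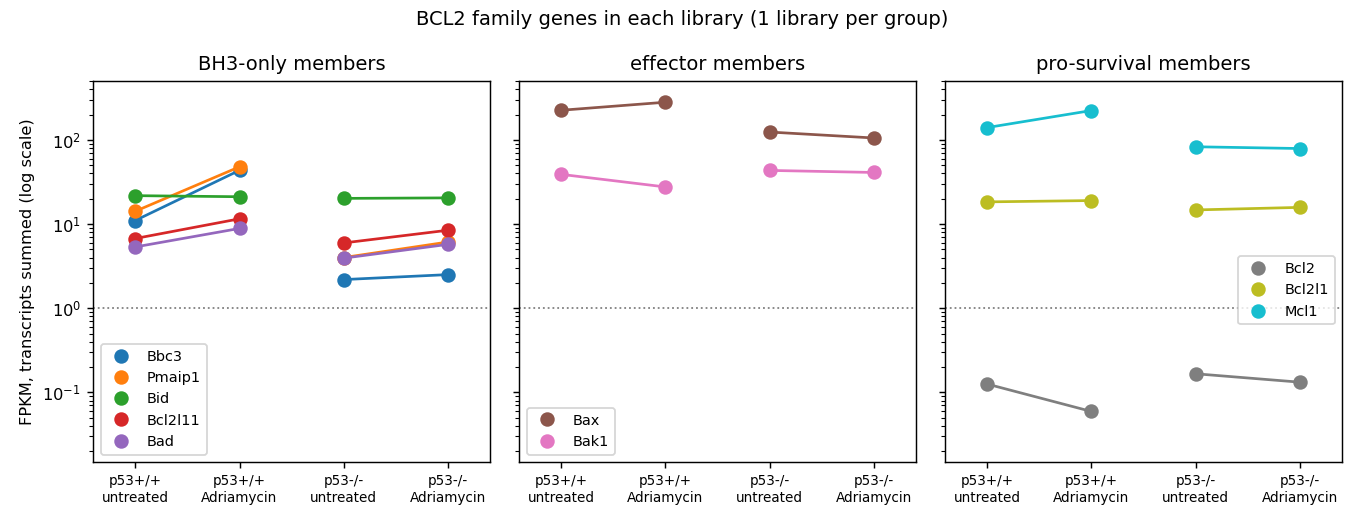
FPKM of each gene (transcripts summed, log scale) in the 4 libraries, by class, with the dotted line at 1 FPKM; points are single libraries and lines join untreated and treated cells of a genotype. Bbc3 and Pmaip1 separate the treated p53+/+ library from the other 3, Bax and Mcl1 are highest in every library, and Bcl2 lies below 1 FPKM throughout.

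Bbc3 encodes Puma, a BH3-only protein that binds all the pro-survival members. Its single transcript in the tables (NM_133234, chromosome 7, 16894932 to 16903683 in mm9) stood at 11.01 FPKM before and 43.5 FPKM after Adriamycin in p53+/+ cells, and at 2.19 and 2.51 FPKM in p53-/- cells. The treated p53+/+ library was the highest and both p53-/- libraries were far below the untreated p53+/+ one. The change was 3.95-fold (difference 1.89) in p53+/+ and 1.15-fold (0.14) in p53-/- cells, and the second value turned to -0.01 after quantile normalization. The 2 responses thus differed by 1.75. A response at least as large as that of Bbc3 was held by 3.13% of all genes in p53+/+ cells and by 35.5% in p53-/- cells. The deposited 95% bounds, which cover counting and assignment error only, ran from 9.22 to 11.4 FPKM in untreated p53+/+ cells and from 1.90 to 3.08 FPKM in treated p53-/- cells. In treated p53+/+ cells the FPKM exceeded the upper bound given with it, 42.9 FPKM.

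Pmaip1 encodes Noxa, a small BH3-only protein best known for binding Mcl-1. Its transcript (NM_021451, chromosome 18, 66618258 to 66625212 in mm9) stood at 14.2 FPKM (bounds 12.4 to 14.7) before and 47.9 FPKM (43.3 to 47.9) after Adriamycin in p53+/+ cells. In p53-/- cells it stood at 4.002 FPKM (3.31 to 4.66) and 6.12 FPKM (5.17 to 6.72). None of these 4 intervals overlap. The change in p53+/+ cells was 3.38-fold (1.69). In p53-/- cells the values were 1.53-fold apart (0.51), short of the step of 1, and 2.56% of all genes had a difference at least as large there. Across the scalings and other settings tried, this p53-/- difference ranged from 0.31 to 0.60. The responses of the genotypes differed by 1.18.

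Bad and Bid moved less. Bad, which frees Bax and Bak by binding Bcl-2 and Bcl-xL and is kept inactive by growth factor signalling, stood at 5.34 FPKM (4.54 to 6.16) and 8.87 FPKM (7.76 to 9.97) in p53+/+ cells and at 3.94 FPKM (3.17 to 4.73) and 5.74 FPKM (4.85 to 6.66) in p53-/- cells. Its bounds did not overlap between untreated and treated cells in either genotype. The changes of 1.66-fold (0.64) and 1.46-fold (0.45) were below the step of 1, and 3.94% of all genes had at least the difference of Bad in p53-/- cells. Bid, which is activated by caspase cleavage, was the flattest member. It stood at 21.7 and 21.1 FPKM in p53+/+ and at 20.2 and 20.5 FPKM in p53-/- cells, with overlapping bounds in all 4 libraries (17.1 to 21.9 FPKM in all).

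Bcl2l11 encodes Bim, a BH3-only protein that, like Puma, binds every pro-survival member. Its 3 transcripts summed to 6.73 and 11.5 FPKM in p53+/+ cells and to 5.97 and 8.45 FPKM in p53-/- cells. Both treated libraries were above both untreated ones. The differences of 0.70 and 0.44 stayed below the step of 1 in each genotype, and 18.2% and 4.23% of all genes had differences at least as large. At the level of transcripts the increase was uneven. The transcripts (chromosome 2, 127951774 to 127988283 in mm9) are 5037, 4869 and 4779 bases long, steps of 168 and 90 bases, and encode Bim EL, Bim L and Bim S with 196, 140 and 110 codons. The sequences of these steps are shown because reads over them or over the junctions that skip them are what can tell the transcripts apart. They lie end to end in the second exon of Bim EL at chr2:128128757-128128924 and chr2:128128925-128129014, on the plus strand of GRCm38, and were read from the GENCODE M21 transcript that is paired with NM_207680. The first is kept in Bim EL only, and carries sites of phosphorylation by ERK. The second is kept in Bim EL and Bim L, and the 15 bases in capitals are codons of the motif that binds dynein light chain.
Kept in Bim EL only: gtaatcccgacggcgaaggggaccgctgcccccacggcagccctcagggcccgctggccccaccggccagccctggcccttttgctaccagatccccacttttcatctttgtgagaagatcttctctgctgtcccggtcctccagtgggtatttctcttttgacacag
Kept in Bim EL and Bim L: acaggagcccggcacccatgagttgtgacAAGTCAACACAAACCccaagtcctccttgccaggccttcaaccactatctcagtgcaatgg

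Bim L (NM_207681) stood at 3.14 FPKM (2.77 to 3.51) and 7.11 FPKM (6.51 to 7.73) before and after Adriamycin in p53+/+ cells, and at 2.45 FPKM (2.07 to 2.84) and 3.68 FPKM (3.23 to 4.14) in p53-/- cells. Bim EL (NM_207680) stood at 3.28 FPKM (2.89 to 3.67) and 4.18 FPKM (3.71 to 4.65), and at 3.52 FPKM (3.06 to 3.97) and 4.77 FPKM (4.25 to 5.30). The treated p53+/+ library was the one in which Bim L exceeded Bim EL, with a ratio of 1.70 against 0.956, 0.697 and 0.772 in the untreated p53+/+, untreated p53-/- and treated p53-/- libraries. The bounds of Bim L and Bim EL overlapped in untreated p53+/+ cells and not in treated ones. In both p53-/- libraries they did not overlap either, with Bim L below Bim EL. On the log2(FPKM + 1) scale Bim L differed by 0.97 and Bim EL by 0.27 with treatment in p53+/+ cells, and by 0.44 and 0.35 in p53-/- cells. Bim S (NM_009754) stood at 0.309 FPKM (0.175 to 0.444) and 0.246 FPKM (0.115 to 0.379) in p53+/+ cells and was estimated at essentially 0 in both p53-/- libraries, with an upper bound of 0.0211 FPKM untreated. The transcripts share most of their bases, so this division rests on the Cufflinks assignment of reads.

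**Figure D2:**
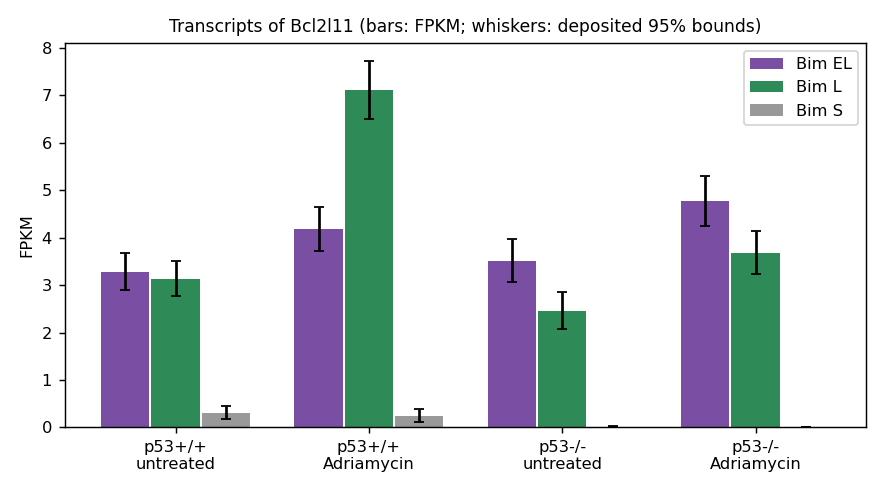
FPKM of the 3 Bcl2l11 transcripts in each library, 1 library per group; bars are FPKM and whiskers the deposited 95% bounds, which cover counting and assignment error only. Bim L reaches 7.11 FPKM in treated p53+/+ cells and no other bar exceeds 4.77 FPKM.

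Across the BH3-only class the median difference was 0.70 in p53+/+ cells and 0.44 in p53-/- cells, against medians of 0.05 and 0.07 for all genes. In p53+/+ cells 2 of 5 were counted higher, where 11.4% of all genes were. In p53-/- cells 0 of 5 were, where only 0.370% of all genes were. In p53-/- cells all 5 values lay above 0, from 0.02 to 0.51, but under median of ratios scaling Bid turned to -0.07, and under quantile normalization Bid and Bbc3 each turned to -0.01.

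**Figure D3:**
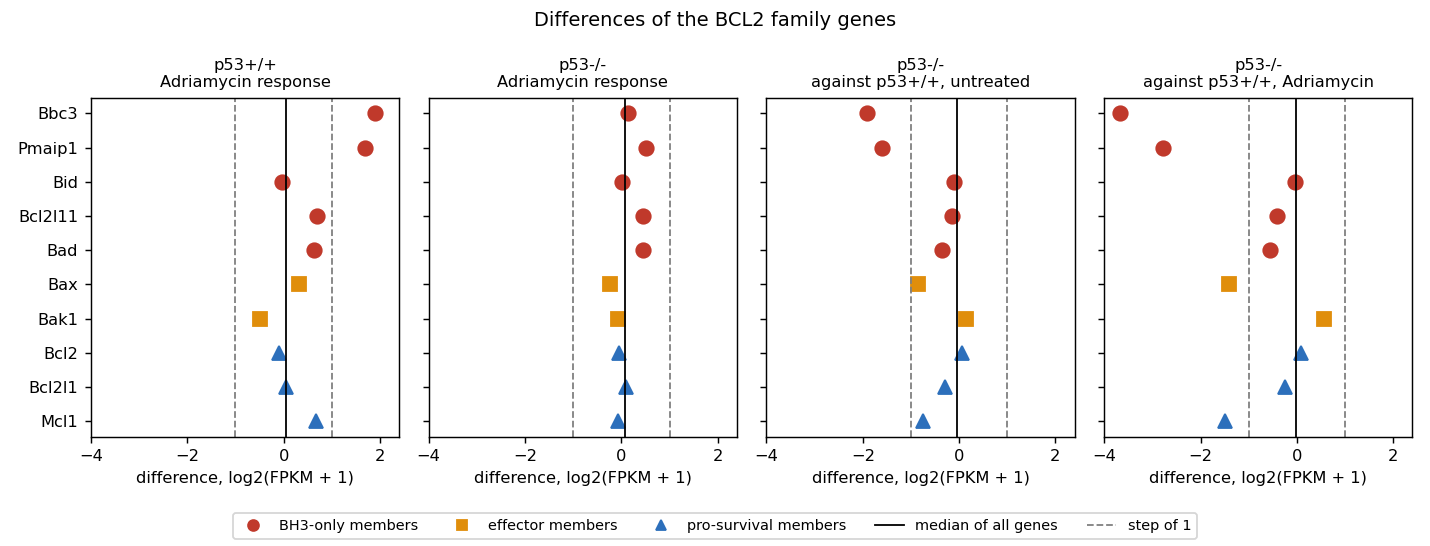
Difference of log2(FPKM + 1) for each gene (rows) in 4 comparisons (panels), each between single libraries; dashed lines mark the step of 1 and the black line the median of all genes. Bbc3 and Pmaip1 pass the step in 3 panels, Bax and Mcl1 in the comparison of treated genotypes, and no gene in the p53-/- response.

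The effectors moved in opposite directions in p53+/+ cells, each by less than the step. Bax (NM_007527, chromosome 7, 52717065 to 52722268 in mm9), the pore-forming effector that is cytosolic before activation, was the most abundant member in every library. It stood at 225 and 280 FPKM in p53+/+ cells and at 124 and 105 FPKM in p53-/- cells, so both p53+/+ libraries were above both p53-/- libraries. The differences with treatment were 0.32 and -0.23. The deposited FPKM exceeded the upper bound given with it in all 4 libraries, by 1.16 to 1.22 times. With the midpoint of the bounds or the read coverage in place of FPKM, alternatives added after the data were seen, and with the other pseudocounts and scalings, the differences stayed between 0.20 and 0.53 and between -0.33 and -0.15. Bax has no value when rows outside their bounds are dropped. Bak1 (NM_007523), the effector that resides on mitochondria, stood at 38.9 and 27.6 FPKM in p53+/+ and at 43.3 and 41.0 FPKM in p53-/- cells. The treated p53+/+ library was the lowest, with differences of -0.48 and -0.08. In the other 3 libraries its FPKM was above the deposited upper bound, by at most 1.02 times. A Ggnbp1 row (NM_001251881) covers the whole of Bak1 at 2.63 to 3.36 FPKM. Without a statement on strand, reads of overlapping genes cannot be told apart where they share bases. The ratio of Bax to Bak1 was 5.77 and 10.2 before and after Adriamycin in p53+/+ cells and 2.86 and 2.57 in p53-/- cells.

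The upstream sequence of Bax is shown because it holds the only match to the p53 consensus decamer among the windows searched. Such a decamer is a part of a full p53 element, which pairs these decamers, and the Bax window held 1. The RefSeq promoter table (GRCm38.p6) held 15 windows for 9 of the 10 genes, all but Pmaip1. Their 250 bases before the start were searched for that decamer, whose complement has the same form, so 1 search covers both strands. It was found in 1 of 15 windows, and in 7.13% of all 32851 windows, so the members' share is near that of all windows. No match says only that these letters are not in a window. The Bax stretch lies at chr7:45466899-45467148 on the minus strand and is printed 5′ to 3′ up to the base before the start. The capitals mark the decamer, whose first base lies 201 bases before the start.
Bax, upstream: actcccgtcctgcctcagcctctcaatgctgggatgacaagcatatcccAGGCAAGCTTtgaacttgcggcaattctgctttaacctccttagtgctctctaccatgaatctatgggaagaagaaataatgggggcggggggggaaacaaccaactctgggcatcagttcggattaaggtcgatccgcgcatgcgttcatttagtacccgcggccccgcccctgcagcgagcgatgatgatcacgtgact

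No pro-survival gene passed the step with treatment in either genotype, and Mcl1 came closest. Mcl1 (NM_008562, chromosome 3, 95462643 to 95467101 in mm9) encodes a short-lived protein whose level depends on continued transcription. It stood at 140 and 223 FPKM in p53+/+ cells and at 82.8 and 78.9 FPKM in p53-/- cells. Both p53+/+ libraries were above both p53-/- libraries, as for Bax. The differences were 0.67 and -0.07 (0.00 when read coverage replaced FPKM), and the responses differed by 0.74. The FPKM exceeded the upper bound given with it in all 4 libraries, by at most 1.03 times. Bcl2l1, which encodes Bcl-xL and was present as 1 transcript only, so that Bcl-xL and Bcl-xS were not separated, stood at 18.3 and 19.0 FPKM in p53+/+ and at 14.7 and 15.8 FPKM in p53-/- cells. Its bounds overlapped between untreated and treated cells in each genotype, and its p53+/+ difference of 0.05 became -0.06 under median of ratios scaling.

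Bcl2, the founding member, was close to silent. Its 2 transcripts summed to 0.126 and 0.0593 FPKM in p53+/+ cells and to 0.166 and 0.132 FPKM in p53-/- cells. The long transcript (NM_009741) stood at 0.0464 to 0.103 FPKM. The short one (NM_177410) stood at 0.0941 FPKM or less, with a lower bound of 0 in every library. The bounds of each transcript overlapped between all libraries, so no difference in Bcl2 was detectable at this depth. The pro-survival transcripts were thus almost all Mcl1, 88.3% and 92.1% of the class sum in p53+/+ cells and 84.8% and 83.2% in p53-/- cells.

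The class sums show how these changes add up. BH3-only genes summed to 59.0 and 133 FPKM in p53+/+ and to 36.3 and 43.3 FPKM in p53-/- cells. Effectors summed to 264 and 308 FPKM and to 167 and 146 FPKM. Pro-survival genes summed to 158 and 242 FPKM and to 97.7 and 94.8 FPKM. The treated p53+/+ library was the highest in all 3 classes. The BH3-only share of pro-apoptotic transcripts went from 18.3% to 30.2% in p53+/+ cells and from 17.8% to 22.8% in p53-/- cells. The ratio of BH3-only to pro-survival transcripts was 0.372 and 0.548 in p53+/+ and 0.371 and 0.456 in p53-/- cells, nearly equal between the untreated libraries. The ratio of effector to pro-survival transcripts went the other way, from 1.66 to 1.27 and from 1.71 to 1.54. Pro-apoptotic transcripts in all were 2.04 and 1.82 times the pro-survival ones in p53+/+ cells, and 2.08 and 2.00 times in p53-/- cells. Bax made up 69.7% and 63.6% of the pro-apoptotic sum in p53+/+ cells, and 60.9% and 55.5% in p53-/- cells. In all 4 libraries the FPKM of Bax and Mcl1 exceeded their upper bounds, by up to 1.22 and 1.03 times. Sums, shares and ratios with these genes carry that limit. The sums are of transcript levels, not of proteins.

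**Figure D4:**
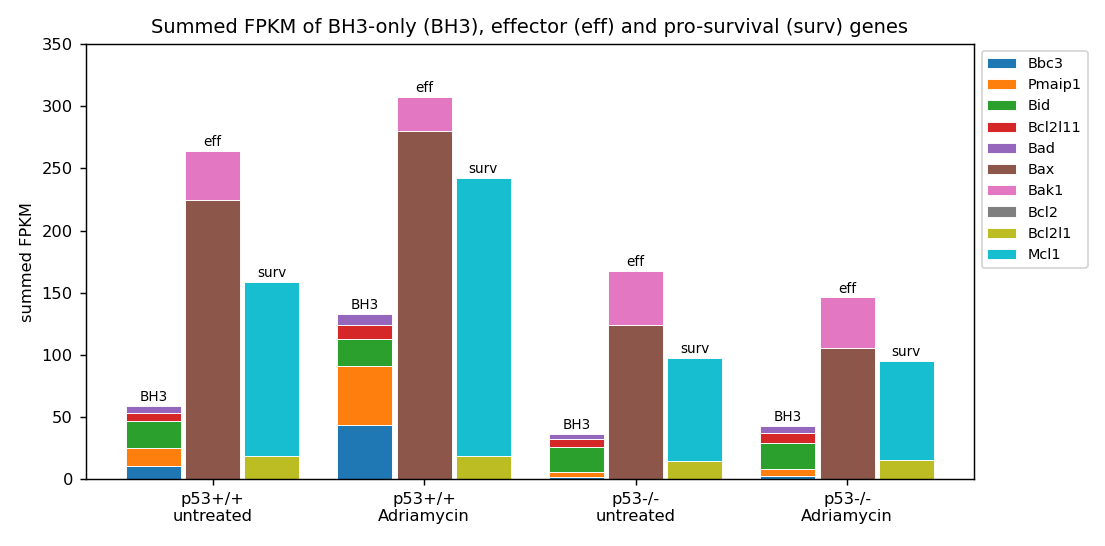
Summed FPKM of the BH3-only, effector and pro-survival genes in each library, stacked by gene, 1 library per group. Bax and Mcl1 fill most of their classes, Bbc3 and Pmaip1 account for most of the taller BH3-only bar of treated p53+/+ cells, and Bcl2 is too low to be seen.

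Untreated p53-/- cells were then set against untreated p53+/+ cells. Of the 10 members 0 were higher and 2 lower in p53-/- cells, where 3.48% of all genes were higher and 3.13% lower. The 2 were Bbc3 (-1.91, 5.03-fold more in p53+/+ cells) and Pmaip1 (-1.60, 3.54-fold). Just short of the step came Bax at -0.85 (1.81-fold) and Mcl1 at -0.75 (1.69-fold). Bad, Bcl2l1, Bcl2l11 and Bid lay between -0.36 and -0.10, Bcl2 stood at 0.05 and Bak1 at 0.15. The class medians were -0.36 for BH3-only, -0.35 for effector and -0.30 for pro-survival genes, against -0.05 for all genes. The effector value is the midpoint of Bax and Bak1, which differed in sign. The pro-survival one includes Bcl2, which did not pass the filter, and was -0.52 over the 2 members that did. With 1 library per genotype, a difference between genotypes cannot be told apart from one between cultures.

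Between treated cells 4 of 10 members were lower in p53-/- cells and 0 higher, against 13.0% and 6.69% of all genes. These were Bbc3 (-3.66), Pmaip1 (-2.78), Mcl1 (-1.49) and Bax (-1.40), which stood 17.3-fold, 7.82-fold, 2.83-fold and 2.66-fold higher in p53+/+ cells. Bak1 was the member furthest in the other direction, at 0.56. Quantile normalization moved the lower share of all genes counted here, with higher genes going from 34.0% to 44.1% of those counted, and left these 4 in place. The comparisons between genotypes and those with treatment share libraries, so the values of a gene in them are not independent.

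Subtracting the p53-/- response from the p53+/+ one left 1 or more in 2 of 10 members, Bbc3 and Pmaip1, and -1 or less in 0, where 10.4% of all genes were on the higher side and 3.29% on the lower. Mcl1 (0.74) and Bax (0.55) came next and Bak1 was lowest (-0.40). Medians were 0.26 for BH3-only, 0.07 for effector and -0.04 for pro-survival genes, against -0.01 for all genes. The pro-survival value is that of Bcl2, which did not pass the filter. Over the 2 pro-survival members that passed, the median was 0.35, above that of the BH3-only genes, so the order of these classes rests on Bcl2. With the main transcript of each gene, Bim L for Bcl2l11, the BH3-only median was 0.53, the value of Bim L itself. The main transcript is the one with the highest mean FPKM over the 4 libraries. Bim L exceeded Bim EL in the treated p53+/+ library only, so this choice depends on the response measured. Bim EL stood at -0.08 in this comparison. Genes on the higher side were 76.0% of all genes counted in this comparison, or 65.5% after quantile normalization.

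**Figure D5:**
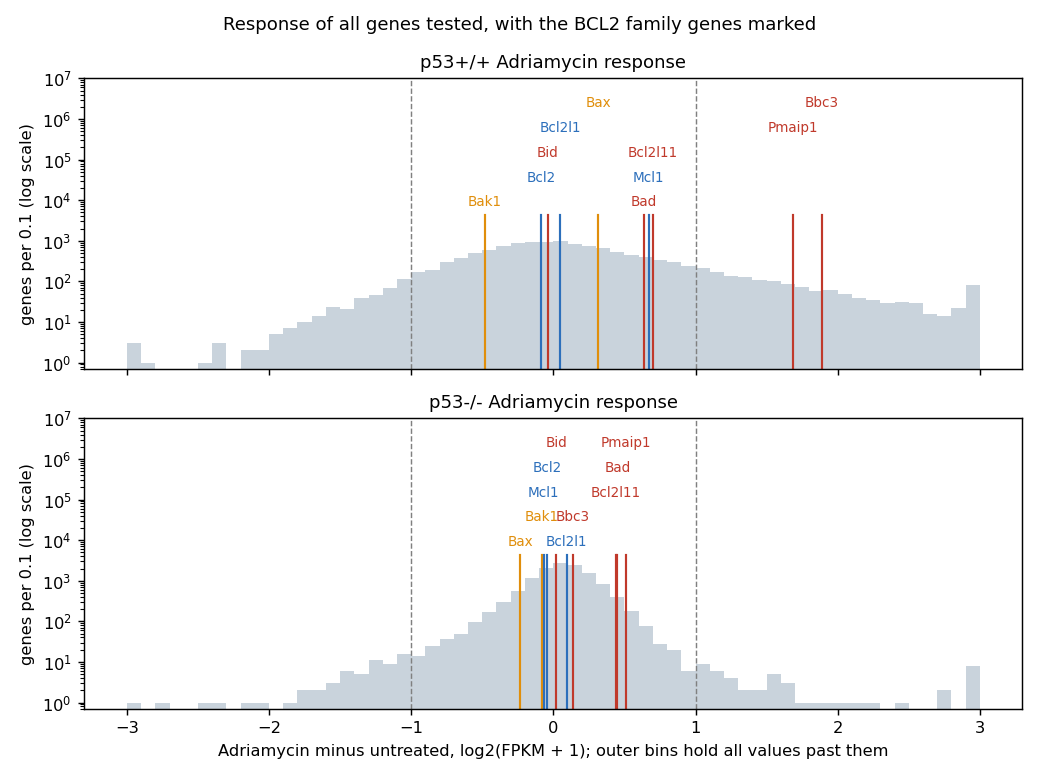
Number of genes (log scale) by response to Adriamycin, in steps of 0.1 of log2(FPKM + 1), among 12986 genes in p53+/+ (top) and p53-/- cells (bottom), with the BCL2 family genes marked in red (BH3-only), orange (effector) and blue (pro-survival); dashed lines mark the step of 1 and the outermost bars also hold the values beyond them. Bbc3 (1.89) and Pmaip1 (1.69) lie on the long upper side of the p53+/+ response, and in p53-/- cells Pmaip1, Bad and Bcl2l11 lie on the upper side of a narrower distribution.

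The genes whose pattern over the 4 libraries lay nearest to 3 of the members were found as the smallest distance between log2(FPKM + 1) values centred on their mean. For Bax these were Ppp1r10, Dock6 and Tnrc6c, at distances of 0.05, 0.06 and 0.06. Ppp1r10 stood at 24.9 and 31.5 FPKM in p53+/+ and at 13.5 and 11.8 FPKM in p53-/- cells. For Bbc3 they were Kbtbd11, Slc19a2 and Phlda3 (0.19, 0.22 and 0.26), and Kbtbd11 stood at 7.14, 33.3, 1.45 and 1.37 FPKM in the same order. For Pmaip1 they were Gm4971, Afg1l and Camk2a (0.27, 0.34 and 0.35), with Gm4971 at 14.1, 40.8, 4.58 and 5.95 FPKM. A likeness over 4 libraries is a description only.

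Other genes of the family or linked to it were then counted. A list of 13 held further BH3-only and BNIP genes, and also other genes such as Mtch1 and Bcl2l13. Of these, 11 passed the filter and 0 were counted in either response. Bik stood at 2.87 and 5.84 FPKM in p53+/+ and at 1.02 and 2.00 FPKM in p53-/- cells, and was lower in p53-/- cells after treatment (-1.19). Bmf, a BH3-only gene linked to cell detachment, stood at 9.31 and 6.01 FPKM against 2.41 and 3.50 FPKM, and was lower in untreated p53-/- cells (-1.60). The effector relative Bok stood at 10.99 and 9.83 FPKM in p53+/+ and at 20.8 and 20.7 FPKM in p53-/- cells, differences of 0.86 and just under 1. Of 6 further pro-survival genes, Bcl2l2, which encodes Bcl-w, and Bcl2l10 passed the filter and 0 were counted in any comparison. Of all genes, 0.370% to 13.0% were counted in a given direction, depending on the comparison. The 4 Bcl2a1 copies were listed at 0 in every library.

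Downstream of the family, 2 of 17 genes of mitochondrial release and its caspases were higher in the p53+/+ response and 0 lower, with a median of -0.04, a count near the 11.4% of all genes that were higher. They were Apaf1, the apoptosome scaffold (7.48 to 44.0 FPKM, against 1.94 and 2.57 FPKM in p53-/- cells), and Endog, a mitochondrial nuclease (7.87 to 19.6 FPKM, against 19.1 and 21.1 FPKM). In p53-/- cells 0 of 17 were counted, where only 0.370% of all genes were higher and 0.470% lower. Of 16 binding partners and regulators of the family, the p53+/+ response had 1 higher and 2 lower (median -0.34). There 11.4% of all genes were higher and 2.79% lower. In p53-/- cells 0 of 16 were counted, against the same 0.370% and 0.470% of all genes. The higher one was Fbxw7 (11.1 to 32.4 FPKM), a ubiquitin ligase subunit whose substrates include Mcl-1. The lower ones were Hk2, a hexokinase that docks on mitochondria (127 to 43.5 FPKM), and Ywhah, a 14-3-3 gene (149 to 69.1 FPKM). Usp9x, which encodes a deubiquitinase of Mcl-1, stood at 51.0 and 25.2 FPKM in p53+/+ and at 34.1 and 34.8 FPKM in p53-/- cells, and its responses differed by -1.01.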

How the data were processed

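RNA of 4 libraries was measured (total RNA per the labels; a poly(A) step is not given in the sources used here), 1 per combination of genotype and treatment. Per the file headers, the authors deposited Cufflinks transcript tables of FPKM with lower and upper bounds, read coverage (a signal of reads per base), and transcript length. CASAVA 1.8.1, TopHat2 2.0.5, TopHat, Cufflinks and the build mm9 are named in the submitters' processing notes, without roles. No Cufflinks version, annotation or strand setting is given in the sources used here. Per the labels' protocols, an exome enrichment kit was used, which could favour some transcripts over others.

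Starts in the tables count from 0, since end minus start equalled length in 3327 rows and length minus 1 in none, so 1 was added. Of 30769 rows, 29700 were named by RefSeq (GRCm38.p6, for names and promoters only), 178 by GENCODE M21 and 891 not. Short RNA genes (733 rows) were left out. All 13 member rows had status OK, and 9 lay within their bounds in every library.

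The members and lists were chosen with earlier results of these data known. The genes named were all members, genes of the other lists past the step (up to 4 per list and comparison), and the 3 nearest patterns of Bax, Bbc3 and Pmaip1. Bcl2l2, Bcl2l10, Bok and the genes given for context were chosen after their values were seen. Alternatives were pseudocounts of 0.1 and 5 FPKM, the main transcript, 3 scalings, other filters, a 1.5-fold step, rows within bounds, and 2 added later. Python 3.11.15, pandas 2.3.3, numpy 2.4.6 and matplotlib 3.10.9 were used. The counting was checked on simulated libraries.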

Additional observations from a re-analysis of the deposited data

Results flagged for a closer look

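The responses of 3 members had opposite signs in p53+/+ and p53-/- cells. They differed by 0.55 for Bax, by 0.74 for Mcl1 and by -0.0599 for Bid. With 1 library per group these differences between genotypes were not tested, and for Mcl1 and Bid the sign in p53-/- cells changed in at least 1 of the alternative settings.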

How the results depend on the processing

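No paired analysis was possible because each group has 1 library, and no library could be left out for the same reason. Of the member values under the alternatives, 466 kept their direction and side of the step, 6 passed the lower 1.5-fold step, and 8 small ones changed sign. The responses of Bbc3 and Pmaip1 in p53+/+ cells ranged from 1.60 to 1.97 and from 1.46 to 1.75. At a 1.5-fold step 5 members were higher in the p53+/+ response, with the BH3-only median of 0.70 past it, where 21.7% of all genes were higher. At that step 4 were lower in untreated p53-/- cells (10.95% of all genes), and 3 were higher in the response difference (19.8%). Over transcripts within their bounds, which drop Bax, Bak1, Bbc3 and Mcl1, each of the counts of 2, 2, 4 and 2 members became 1, and the pro-survival medians became -0.0190 (p53+/+ response) and 0.0259 (p53-/- response). The p53-/- pro-survival median, with Bcl2 included, was 0.0401 in main transcripts and 0.000613 from coverage. The p53+/+ one was -0.0601 under median of ratios, and the p53+/+ effector median was 0.0447 after quantile normalization. Main transcripts took the BH3-only median of the response difference from 0.26 to 0.53. That value is the one of Bim L, chosen by a mean that includes the treated p53+/+ library. With quantile normalization the all-gene median went from 0.05 to -0.10 in the p53+/+ response and from -0.02 to 0.10 between treated genotypes, so values near 0 carry no direction. Counts of all genes ranged from 626 to 2819 higher and 153 to 1466 lower in the p53+/+ response (1478 and 362 as reported), and from 20 to 202 and 31 to 194 in the p53-/- response (48 and 61). They ranged from 136 to 1332 and 118 to 1422 between untreated genotypes (452 and 406), from 335 to 2301 and 792 to 3039 between treated ones (869 and 1690), and from 611 to 2577 and 158 to 1790 for the response difference (1355 and 427). The cause of these shifts was not tested. Depth limits Bcl2, whose bounds overlap in all libraries.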
